A study of Mus musculus with 8 samples.

Results

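Pou5f1 encodes Oct4, a POU-domain transcription factor that keeps embryonic stem cells pluripotent. It binds DNA together with Sox2 at the enhancers of many stem cell genes, including its own, and with Nanog it forms the core of the pluripotency network. A proximal and a distal enhancer lie within a few kilobases upstream of its promoter, and the distal one drives the gene in naive stem cells. Contacts of the gene were taken from H3K27ac HiChIP, an assay that ligates DNA ends held near one another in fixed nuclei and enriches chromatin acetylated at lysine 27 of histone H3, a mark of active promoters and enhancers. A count is a read pair that reports such a contact. The members were the loops on chromosome 17 with an anchor within 5 kb of an annotated start of Pou5f1, and there were 75 of them among 415681 loops of the series. A loop is a pair of anchors, and an anchor is a run of touching bins of 5 kb. A single anchor of 30044 met the rule, and the same 75 loops were found when the anchor had to hold a start.

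The libraries came from 4 mouse embryonic stem cell lines with 2 technical replicates each. Cell line B6 5-1, of strain C57BL/6J, is called B6 here, and cell line D2 5-5, of strain DBA/2J, is called D2. Cell line QJ 6-1, called B6-13D2, carries the C57BL/6J genome with an interval of chromosome 13 from DBA/2J (labelled B6.D2-(rs30079041-rs51756099)/Bakr). The fourth, XE 2-4, called D2-13B6, carries the DBA/2J genome with an interval from C57BL/6J (labelled D2.B6-(rs29224292-rs13469455)/Bakr). For D2-13B6, the labels and the design text disagree on the marker that bounds its interval on one side. Per the labels, all lines grew in serum with LIF, 1 µM PD0325901 (an inhibitor of MEK) and 3 µM CHIR99021 (an inhibitor of GSK3). Every genotype was represented by 1 line, so its own spread between lines is unknown, and p-values measure only the spread between technical replicates. In such bulk cultures, fewer cells with a contact and fewer contacts per cell cannot be told apart. Acetylation of the chromatin pulled down also enters the counts and was not measured apart from them.

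Library totals ran from 737955 to 1425304 counts. The Pou5f1 loops held 774 and 482 counts in B6, 568 and 518 in D2, 700 and 1138 in B6-13D2, and 1117 and 1160 in D2-13B6. These were 0.0653% to 0.0839% of each library. Anchors were present at all 6 naive pluripotency markers and at none of 6 markers of primitive endoderm. Of the other lists, 2 of 4 primed markers (Otx2 and Dnmt3b), 1 of 5 trophoblast markers (Cdx2) and 4 of 6 fibroblast markers (Col1a1, Col1a2, Col3a1 and Vim) had an anchor. Summed over a library, the naive markers reached 1370 to 1963 CPM of anchor sums, the primed markers 51.4 to 75.9, the trophoblast marker 4.74 to 8.81 and the fibroblast markers 43.5 to 74.4. CPM is a count scaled by the library's total and its TMM factor.

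The gene (ENSMUSG00000024406.16) lies on the plus strand of chromosome 17, with 6 annotated starts from 35506018 to 35508821 on GRCm38. Its anchor, chr17:35480001-35520000, is 40 kb wide, against a median of 5 kb for all anchors, and is made of 8 bins. All Pou5f1 starts fall in the sixth of these bins, chr17:35505001-35510000, called the promoter bin below. The adjacent bin, chr17:35500001-35505000, covers 1.02 to 6.02 kb upstream of the first start and therefore the stretch in which the known upstream enhancers lie. Pairs of bins were listed only from 10 kb between bin starts, so contacts of the promoter bin with this adjacent enhancer bin were not measured. The label of promoter and enhancer contacts thus holds for the anchor as a whole, which merges both. The last 2 bins hold starts of Gm19553, and of Cchcr1 and Tcf19, so contacts of the anchor are not those of Pou5f1 alone.

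The 236 bases before the first start are shown because they are the promoter on which the anchor was chosen (RefSeq, GRCm38.p6, chr17:35505782-35506017, plus strand).
Pou5f1 promoter: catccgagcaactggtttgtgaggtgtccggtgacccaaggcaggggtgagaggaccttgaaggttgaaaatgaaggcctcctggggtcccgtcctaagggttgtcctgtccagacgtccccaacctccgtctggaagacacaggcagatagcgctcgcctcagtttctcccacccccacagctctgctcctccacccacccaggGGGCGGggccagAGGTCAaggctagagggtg
Capitals mark a GC box, GGGCGG, 31 bases before the start, and AGGTCA, a core motif of nuclear receptors, 19 bases before it. They do not overlap. Searched on both strands, a GC box was present in 30.8% and AGGTCA in 13.3% of 32851 RefSeq promoter windows of this length. The octamer ATGCAAAT, the motif for which Oct factors are named, had 0 matches in this window and was found in 1.56% of the windows. Within the anchor, the octamer occurred once, in the promoter bin, and 25.4% of all 42062 tested bins held one.

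Contacts of Pou5f1 were strong for a gene start. Over all libraries the anchor reached 56.6 CPM per 5 kb of width. This was rank 410 among 12271 anchors with a protein-coding start within 5 kb, whose median was 15.4 CPM per 5 kb. Of the 29 other pluripotency genes listed, Nanog alone stood higher, at 71.9 CPM per 5 kb, and the median of the 29 was 30.9. Against 143 anchors of the same width, Pou5f1 ranked 18 by CPM. Contacts inside the anchor, between bins at least 10 kb apart, made up 44.0% of its counts. The median of the anchors of the same width was 38.7%, and 49 of them were higher than Pou5f1.

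The other 74 loops joined the anchor to partners on both sides, 41 upstream and 33 downstream. Of the 75 loops, 20 had a count in all 8 libraries and 5 in a single library. No library gave more than 4 counts to 47 of the 74 partners. Partners were mostly at genes, since 59 of 74 (79.7%) had a protein-coding start within 5 kb, against 40.8% of all anchors. The surrounding region is gene-rich too: of 82 anchors on chromosome 17 within 2 Mb, 63 (76.8%) had such a start. Those 82 include all 74 partners and the Pou5f1 anchor itself, so the 2 shares were bound to be close. Pou5f1 thus had a listed loop to nearly every anchor in this range. The profile was lopsided close to the gene. The nearest downstream partner began 10 kb past the anchor, whereas the nearest upstream partner ended at 35305000, a gap of 175 kb. That gap held 0 anchors and 0 listed bins of any library. The 6 protein-coding genes that start there are all H2-Q genes, which encode class I histocompatibility proteins.

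**Figure D1:**
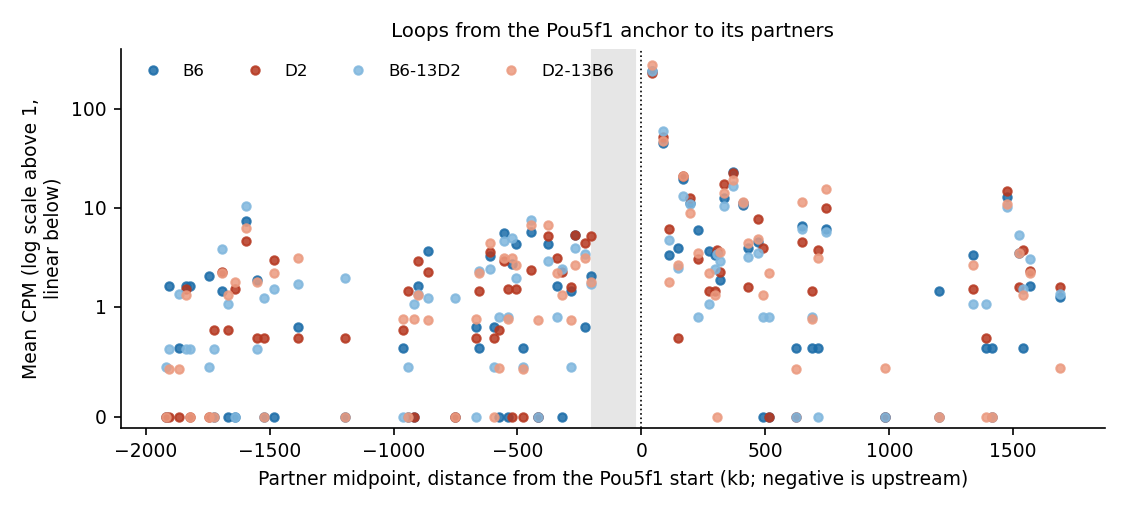
Mean CPM over 2 libraries per line of each loop from the Pou5f1 anchor, against the distance of the partner's midpoint from the first Pou5f1 start in kb. The dotted line is the start and the grey band the gap upstream without anchors. The strongest partners lie downstream, led by the one at 44.0 kb, and no partner lies in the 175 kb upstream of the anchor.

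The partner with by far the most counts was the neighbouring gene cluster at chr17:35530001-35570000, 44.0 kb downstream at its midpoint, with starts of Psors1c2, Cdsn (corneodesmosin, a skin adhesion protein), Cchcr1 and 2300002M23Rik. Its loop had 267 and 216 CPM in B6, 233 and 230 in D2, 209 and 276 in B6-13D2, and 261 and 295 in D2-13B6. The lines overlapped, apart from D2-13B6, whose libraries both lay above those of D2. Next came the anchor at Sfta2 (35585001 to 35605000), 89.0 kb downstream. There the loop had 47.4 and 42.5 CPM in B6, 41.6 and 61.9 in D2, 58.2 and 62.5 in B6-13D2, and 49.95 and 45.6 in D2-13B6. B6-13D2 was above B6 in both libraries, and D2 spanned nearly the whole range.

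Farther downstream, the tested loops were weaker than these. The loop to Nrm (a nuclear membrane protein), Dhx16 (a splicing helicase) and Ppp1r18, at 371 kb, had a mean of 20.4 CPM and ranged from 13.6 to 25.0 over the libraries. The loop to Gtf2h4, a subunit of TFIIH, and Vars2, a mitochondrial tRNA synthetase, at 169 kb, had a mean of 18.6 CPM. At 331 kb, the anchor of Flot1, Mdc1 (a mediator of the DNA damage response) and Tubb5 (a beta tubulin) had 13.6 CPM. The loop to Mrps18b, Ppp1r10 and Atat1, at 409 kb, had 11.1 CPM, and that to Ddr1, a collagen receptor, at 196 kb, had 10.9 CPM. A distant partner at 1474 kb had 12.2 CPM and was 14 bins wide, against 3 bins for the anchor of Ddr1 and 4 for that of Mrps18b. It holds Zfp57, a zinc finger protein that keeps imprinted methylation in stem cells, with Znrd1, Ppp1r11 and Rnf39. The longest loop that passed the filter spanned 1587.5 kb upstream to the anchor of Daxx (a histone H3.3 chaperone), Kifc1 and Tapbp (tapasin), with 2.87 to 11.1 CPM over the libraries.

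A minimum of 5 counts in 2 or more libraries was met by 22 of the 75 loops, which were tested, namely the contacts inside the anchor, 7 upstream and 14 downstream loops. Differences were tested with edgeR over all 44706 such loops of the series, and a result is called at a false discovery rate (FDR) under 0.05. No loop from Pou5f1 to another anchor was called in any of the 6 planned contrasts or in the contrast of the congenic lines. Counting also the contacts inside the anchor, 0 of 22 loops were called in D2 against B6 (background 2.65% of all tested loops), 0 in B6-13D2 against B6 (0.859%) and 1 in D2 against D2-13B6 (0.922%). In the averages over the design, 0 were called for the interval effect, D2 minus B6 allele (0.986%), 0 for the background effect, D2 minus B6 genome (8.85%), and 1 for the interaction (0.606%). In D2-13B6 against B6-13D2, 0 were called (8.59%). At an unadjusted p under 0.05, the 22 loops gave 1, 0, 3, 0, 2, 2 and 1 in the same order. Among the 6 planned contrasts, DESeq2 also called 1 loop in D2 against D2-13B6, 1 in the interaction and 0 in the others. It gave an FDR to only 2236 loops of the series in D2 against D2-13B6, B6-13D2 against B6, the interval effect and the interaction. In D2 against B6 these were 14370 loops, and for the background effect 20437. A loop without an FDR could not be called, so its absence among the calls decides nothing. The median log2 fold change of the 21 loops between anchors was 0.03 for the background effect and -0.13 for the interval effect, against 0.02 and -0.01 for all tested loops.

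The loop nearest to a call joined Pou5f1 to Trim39, a ubiquitin ligase, and Rpp21, a subunit of RNase P, at chr17:36230001-36275000 and 746 kb downstream. Its CPM were 2.50 and 9.80 in B6, 7.18 and 12.7 in D2, 2.47 and 9.05 in B6-13D2, and 12.5 and 18.4 in D2-13B6. The second replicate was the higher in every line, and the backgrounds overlapped. In D2-13B6 against B6-13D2 the log2 fold change was 1.29 (SE 0.46, FDR 0.058), and in D2 against B6 it was 0.78 (SE 0.64, FDR 0.661). The background effect was 1.03 (SE 0.40, FDR 0.0825). With single libraries left out it ran from 0.64 (FDR 0.438, without the first B6 library) to 1.66 (FDR 0.0265, without the second B6-13D2 library), and it was also called without the second B6 library (1.59, FDR 0.0279).

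Summed over all its loops, the Pou5f1 anchor was compared across lines for its level as a whole. It had 482 and 367 CPM in B6, 385 and 393 in D2, 440 and 532 in B6-13D2, and 502 and 523 in D2-13B6. Both D2-13B6 libraries lay above every parental library, and the B6-13D2 libraries overlapped with B6. D2 was lower than D2-13B6 by a log2 fold change of -0.40 (SE 0.11, FDR 0.0162), which was called, as were 5.73% of all 21211 tested anchors. Not called were D2 against B6 (-0.13, SE 0.12, FDR 0.533; 11.8% of anchors called), B6-13D2 against B6 (0.19, SE 0.11, FDR 0.349; 5.27%), and D2-13B6 against B6-13D2 (0.07, SE 0.11, FDR 0.687; 24.5%). Neither were the averaged interval effect (-0.10, SE 0.08, FDR 0.524; 6.16%) and background effect (-0.03, SE 0.08, FDR 0.833; 24.8%). The D2 interval allele thus went with a lower sum in the D2 background, while the difference in the B6 background was not called. That difference ran from 0.0173 to 0.41 with single libraries left out, and was -0.00424 with the trend on abundance removed. The value of 0.41, without the first B6 library, was called on the spread of the other lines, since 1 B6 library has none. The interaction, which tests that the differences in the 2 backgrounds are unequal, was -0.59 (SE 0.16, FDR 0.0128; 4.83% of anchors called). By its form it is equally the parental lines minus the congenic lines, and every congenic library had a higher total than every parental one. The call of D2 against D2-13B6 was lost when any library of those lines was left out, under library totals alone, with a scaling factor per chromosome, with the trend on abundance removed and without contacts inside the anchor. The interaction was lost under these settings too, apart from the scaling per chromosome, and without any of 5 single libraries.

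**Figure D2:**
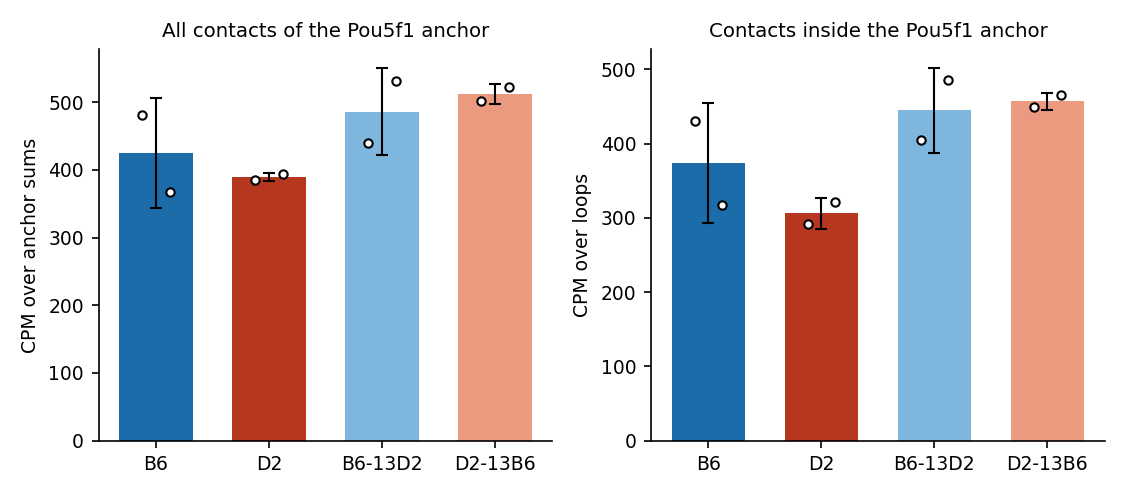
CPM of all contacts of the Pou5f1 anchor (left) and of contacts inside it (right) per line. Bars are means, error bars the SD and circles the 2 libraries. D2 is the lowest line in both panels, and the congenic lines have the highest means. Each panel has its own scale of CPM, since a sum over anchors counts a loop in both of its anchors.

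The difference lay mostly inside the anchor. Contacts inside it had 431 and 317 CPM over loops in B6, 292 and 321 in D2, 405 and 485 in B6-13D2, and 449 and 465 in D2-13B6. D2 was below D2-13B6 in both libraries, with a log2 fold change of -0.58 (SE 0.13, FDR 0.00172), and this was the single Pou5f1 loop called in that contrast. It was also the one called for the interaction, at -0.82 (SE 0.18, FDR 0.00215). The call of D2 against D2-13B6 was lost without the first D2 or the second D2-13B6 library and with the trend on abundance removed. The interaction was lost with the trend removed and without the second B6, first D2, second B6-13D2 or second D2-13B6 library. Without single libraries, D2 against D2-13B6 ran from -0.63 to -0.48 and the interaction from -1.07 to -0.62. Without contacts inside anchors, the anchor sum gave -0.21 for D2 against D2-13B6 (FDR 0.326).

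Other features moved with this pattern. Contacts inside the anchor made up 44.6% and 40.2% of Pou5f1 counts in B6, 35.7% and 39.0% in D2, 46.7% and 47.1% in B6-13D2, and 45.0% and 45.7% in D2-13B6. Over all loops of the series, contacts inside an anchor took 29.3% to 31.3% in the parental and 32.7% to 33.4% in the congenic libraries. Totals were 737955 to 952040 counts in the parental and 982278 to 1425304 in the congenic libraries. Of the 49 tested anchors within 1 Mb, 1 was called in D2 against D2-13B6 (2.04%, against 5.73% of all anchors), which is Pou5f1 itself. Their median was -0.23, against 0.03 for all anchors. The 29 other pluripotency anchors described further on had medians of -0.17 in D2 against D2-13B6 (0.03 for all anchors) and -0.28 for the interaction (0.02). The summed naive markers reached 1772 and 1963 CPM of anchor sums in D2-13B6, while the other lines ranged from 1370 to 1604. The part of depth, of the series-wide share inside anchors and of these levels in the Pou5f1 result was not tested.

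Between the strain backgrounds, a called difference at Pou5f1 was seen at a single bin upstream. The bin chr17:35490001-35495000, 11.02 to 16.02 kb upstream of the first start, had lower contact counts, relative to scaled library totals, in both lines with the D2 genome. Its counts were 150 and 108 in B6 and 142 and 251 in B6-13D2, against 60 and 56 in D2 and 133 and 128 in D2-13B6. As CPM of bin sums these were 79.2 and 71.8 in B6, 74.5 and 95.7 in B6-13D2, 35.6 and 36.4 in D2, and 49.98 and 47.6 in D2-13B6. Every library with the D2 genome was below every library with the B6 genome, while totals of both backgrounds covered overlapping ranges. The bin was singled out after its values were seen. The reference build is that of C57BL/6J, and how D2 variants in this bin affect read mapping was not tested.

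The background effect at this bin was -0.95 on the log2 scale (SE 0.12, FDR 7.25e-12). D2 against B6 gave -1.07 (SE 0.18, FDR 2.33e-06), and D2-13B6 against B6-13D2, which shares no library with it, gave -0.82 (SE 0.15, FDR 2.21e-06). No interval contrast was called at this bin. The values had opposite signs in the backgrounds, at -0.44 (SE 0.18, FDR 0.158) for D2 against D2-13B6 and 0.18 (SE 0.15, FDR 0.554) for B6-13D2 against B6, and averaged -0.13 (SE 0.12, FDR 0.617). The interaction was -0.62 (SE 0.23, FDR 0.12), and without the first B6-13D2 library it was -0.78 and called (FDR 0.0499). For the background effect, 1 of the 8 bins of the anchor was called, where 23.9% of 42062 tested bins of the series were called in either direction and 12.1% as lower. For D2 against B6 it was again 1 of 8 (9.45% of all bins), and for D2-13B6 against B6-13D2 also 1 of 8 (24.2%). In each of these contrasts the called bin was this one. Strain differences were common in the series, and 2.94% of tested bins had a background effect lower than that of this bin. Within 1 Mb of Pou5f1, 2 of 132 tested bins did.

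**Figure D3:**
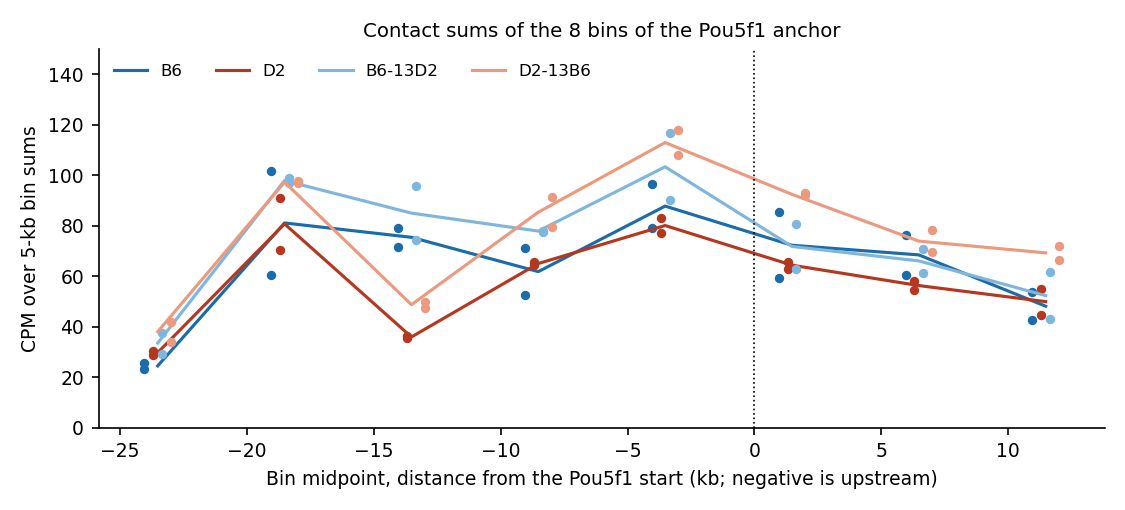
CPM of the sums of contacts in each of the 8 bins of the Pou5f1 anchor, against the distance of the bin's midpoint from the first start in kb. Points are libraries, drawn slightly apart, and lines join the means of each cell line. At the third bin, both D2-background lines fall to 36.0 and 48.8 CPM on average, whereas B6 and B6-13D2 stay at 75.5 and 85.1.

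The neighbours on either side did not share the difference. The adjacent bin toward the gene (35495001 to 35500000) had a background effect of 0.09 (SE 0.11, FDR 0.579), and the bin beyond it upstream (35485001 to 35490000) had -0.02 (SE 0.10, FDR 0.902). In the enhancer bin next to the promoter the value was -0.02 (SE 0.10, FDR 0.935), and in the promoter bin 0.08 (SE 0.11, FDR 0.644). Over the other 7 bins the values of the 2 backgrounds overlapped. In D2-13B6 against B6-13D2, 6 of these 7 were above 0 without a call, among them the promoter bin at 0.35 (SE 0.14, FDR 0.0525) and the last bin, 35515001 to 35520000, at 0.38 (SE 0.15, FDR 0.0538).

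**Figure D4:**
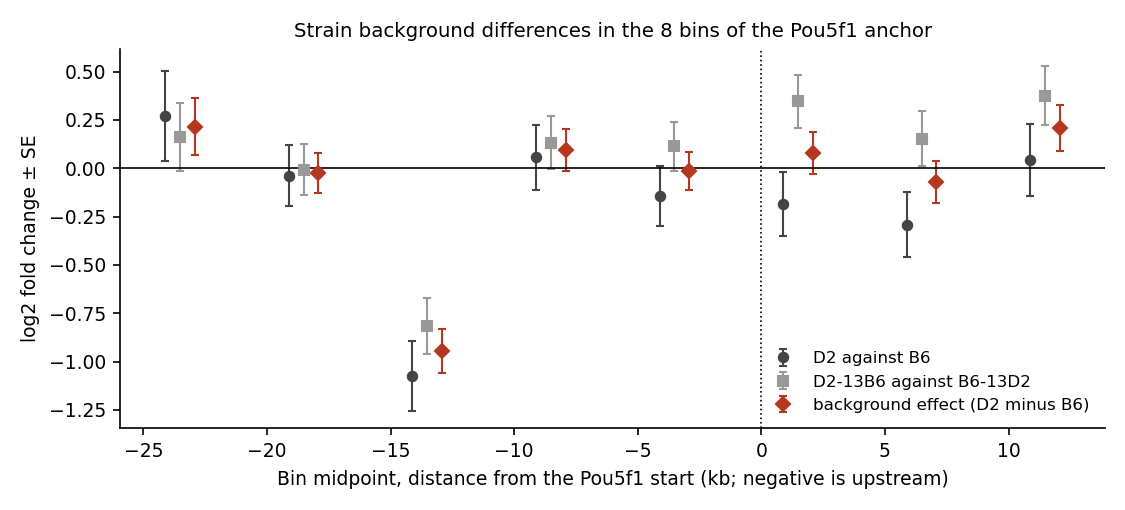
Log2 fold change with its SE for the 8 bins of the Pou5f1 anchor, in D2 against B6, in D2-13B6 against B6-13D2 and as their average, the background effect. The third bin is at -1.07, -0.82 and -0.95, and no other bin is called.

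No annotated gene or exon overlaps the bin. Of its bases, 52.3% are repeat-masked and 45.1% are G or C, against medians of 26.9% and 45.1% over all tested bins. The 3 nearest bins with a similar or higher repeat content, at 78.8%, 51.7% and 59.4%, had background effects of 0.22, -0.02 and 0.09. A stretch of 200 bases from the longest run without repeats (536 bases) is shown because this is the bin of the anchor called between the strain backgrounds (GRCm38, chr17:35490817-35491016, plus strand, nothing in capitals).
Upstream bin: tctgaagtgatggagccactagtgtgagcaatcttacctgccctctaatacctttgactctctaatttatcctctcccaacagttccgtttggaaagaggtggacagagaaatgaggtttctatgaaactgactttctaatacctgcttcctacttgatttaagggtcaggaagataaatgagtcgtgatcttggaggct
It is the C57BL/6J reference sequence. The octamer had 0 matches in the whole bin.

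The share of this bin within each library does not depend on scaling between libraries. Among contacts inside the anchor, the bin took part in 24.3% (exact 95% interval 19.9 to 29.2) and 33.0% (26.4 to 40.1) in B6, and in 28.4% (23.6 to 33.7) and 31.9% (28.0 to 36.0) in B6-13D2. In D2 it took part in 18.2% (13.2 to 24.2) and 17.8% (12.8 to 23.8), and in D2-13B6 in 14.5% (11.6 to 17.9) and 17.2% (14.1 to 20.7). The intervals cover counting error only. Among contacts leaving the anchor, its share was 15.4% and 15.3% in B6, 13.1% and 13.3% in B6-13D2, 6.30% and 6.33% in D2, and 9.77% and 5.87% in D2-13B6. In both kinds of contact, each D2-background library had a lower share than each B6-background library.

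Resolved into pairs of bins, 55 of 901 listed pairs touching the anchor passed the filter and 8 of them held the upstream bin. All 8 had a background effect below 0, with a median of -0.88, and 2 were called, against 4.4% of 73375 tested pairs of the series in either direction. Of the other 47 pairs, 19 were below 0, their median was 0.14, and edgeR called 0, with 4 at an unadjusted p under 0.05. The pairs of the upstream bin hold the counts of its sum and are not independent of it. Over all 55 pairs, 0 were called for the interval effect (0.102% of all pairs; 6 at an unadjusted p under 0.05) and for the interaction (0.00681%; 2). Likewise 0 were called in D2 against D2-13B6 (0.0695%; 6), in D2 against B6 (0.901%; 8) and in B6-13D2 against B6 (0.0627%; 2). DESeq2 was not run on pairs.

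One of the called pairs joined the upstream bin to the promoter bin, 15 kb apart. It had 27 and 10 counts in B6, 21 and 37 in B6-13D2, 8 and 4 in D2, and 20 and 24 in D2-13B6. The background effect was -1.06 (SE 0.28, FDR 0.0065), D2 against B6 gave -1.49 (SE 0.46, FDR 0.101) and D2-13B6 against B6-13D2 gave -0.64 (SE 0.31, FDR 0.255), so neither pair of lines alone reached a call. The other joined it to the enhancer bin next to the promoter, 10 kb apart, with 32 and 35 counts in B6, 44 and 77 in B6-13D2, 15 and 21 in D2, and 28 and 28 in D2-13B6. Its background effect was -1.07 (SE 0.20, FDR 1.52e-05). It was called in D2-13B6 against B6-13D2 (-1.35, SE 0.25, FDR 1.3e-05) and not in D2 against B6 (-0.78, SE 0.31, FDR 0.294). In D2-13B6 against B6-13D2, 2 of the 55 pairs were called (4.35% of all pairs), with 11 at an unadjusted p under 0.05. The second was a pair of the enhancer bin with the bin starting at 35540001, which had 13 and 14 counts in D2-13B6 and 3 and 3 in B6-13D2 (1.87, SE 0.58, FDR 0.0364).

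Other contacts of the promoter bin gave no call. Its pair with the bin starting at 35495001 had 21 and 14 counts in B6, 20 and 19 in D2, 29 and 47 in B6-13D2, and 53 and 56 in D2-13B6, with a background effect of 0.27 (SE 0.21, FDR 0.566). Its pair with the bin at 35485001, beyond the upstream bin, had 39 and 10 counts in B6, 15 and 13 in D2, 21 and 36 in B6-13D2, and 45 and 40 in D2-13B6, and a background effect of -0.17 (SE 0.22, FDR 0.772). Nearest to a call was the pair of the promoter bin with the bin at 35515001, in D2-13B6 against B6-13D2 (1.11, SE 0.36, FDR 0.0515). It had 13 and 9 counts in B6, 10 and 6 in D2, 9 and 13 in B6-13D2, and 34 and 23 in D2-13B6.

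Leaving out the pairs of the upstream bin moved the sum of the anchor in D2 against B6 from -0.13 to 0.04, and the background effect from -0.03 to 0.14 (FDR 0.210). The background effect of contacts inside the anchor moved from -0.14 to 0.09.

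The summed level of the fibroblast markers was 58.5 to 74.4 CPM of anchor sums in the D2-background libraries and 43.5 to 54.8 in the B6-background libraries. Vim had a background effect of 0.95 (SE 0.21, FDR 0.000165), whereas Col1a1, the one with the most counts, had 0.12 (SE 0.17, FDR 0.669) and Col1a2 had 0.39 (SE 0.22, FDR 0.208). In D2-13B6 against B6-13D2, Vim (0.80, SE 0.26, FDR 0.0148) and Col1a1 (0.74, SE 0.22, FDR 0.00833) were called higher and Col1a2 was not (0.06, SE 0.31, FDR 0.917). Col1a1 lies on chromosome 11, which the likeness ranking leaves out, and the dosage of that chromosome in D2-13B6 was not tested here. In D2 against B6, Vim was called at 1.11 (SE 0.32, FDR 0.0132) and Col1a1 was at -0.50 (SE 0.26, FDR 0.213). Col1a1, Col1a2 and Vim had counts in every library, Col3a1 was at 0 in both B6 libraries, and Thy1 and Twist1 had no anchor. Their part in the result at the upstream bin was not tested.

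Bins at the gene itself followed the sum of the anchor. In D2 against D2-13B6, all 8 bins were below 0 and 2 were called (5.18% of all tested bins): the promoter bin at -0.52 (SE 0.15, FDR 0.0194) and the enhancer bin next to it at -0.50 (SE 0.14, FDR 0.0158). The promoter bin had 85.5 and 59.2 CPM in B6, 65.8 and 63.1 in D2, 62.9 and 80.8 in B6-13D2, and 92.1 and 92.9 in D2-13B6, so that D2-13B6 exceeded all other libraries. Both calls were lost under library totals alone and when any library of D2 or D2-13B6 was left out. The fold changes without single libraries ran from -0.54 to -0.49 for the promoter bin and from -0.55 to -0.43 for the enhancer bin. For B6-13D2 against B6 and for the interval effect, edgeR called 0 of 8 (3.49% and 4.58% of all bins), with 2 of 8 at an unadjusted p under 0.05 in each. DESeq2 was not run on bins. For the interaction, 2 of 8 were called (3.79%), namely the enhancer bin (-0.74, SE 0.20, FDR 0.0145) and the bin upstream of it (35495001 to 35500000; -0.71, SE 0.21, FDR 0.0384). Under library totals alone, edgeR called 0 of 8, and with a replicate block 1 of 8. With single libraries left out, 0 of 8 were called without the second B6, first D2, second B6-13D2 or second D2-13B6 library, and as many as 4 without the first B6 library.

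The reach of the contacts was compared by background and by interval allele, averages in which a difference of both congenic lines from both parental lines cancels. Each average holds 4 libraries, which are 2 technical replicates of 2 lines and not independent, so the p-values describe these libraries only. Counts in loops spanning at least 100 kb made up 25.2% ± 4.11 (SD, n = 4) of Pou5f1 counts with the D2 genome and 23.1% ± 2.88 (SD, n = 4) with the B6 genome. An exact permutation test, two-sided, gave p = 0.457 (0.743 adjusted over 4 tests of shares). By allele of the interval, the shares were 24.6% ± 4.57 (D2, SD, n = 4) and 23.6% ± 2.54 (B6, SD, n = 4), with p = 0.743 in the same exact test (0.743 adjusted). Upstream partners took 12.8% ± 2.64 (SD, n = 4) of contacts between anchors with the D2 genome and 14.1% ± 3.93 (SD, n = 4) with the B6 genome (exact permutation p = 0.543, adjusted 0.743). By allele these were 14.1% ± 2.79 for D2 and 12.9% ± 3.86 for B6 (SD, n = 4 each; exact permutation p = 0.629, adjusted 0.743). The smallest p that permuting the libraries allows is 0.0286. By line, loops of 100 to 500 kb held 17.8% ± 1.18 of counts in D2, 15.1% ± 1.11 in B6, 12.6% ± 0.957 in D2-13B6 and 11.9% ± 0.998 in B6-13D2 (SD, 2 libraries each). Every parental library, at 14.3% to 18.7%, was above every congenic library, at 11.2% to 13.2%. This contrast was not tested, and the classes are shares of 1 total, so that a lower share inside the anchor raises the others.

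The other genes of the pluripotency network were set beside Pou5f1 on the same scale of anchor sums. All 29 listed genes had a tested anchor. For the background effect, 9 rose and 2 fell, or 37.9% called, against 24.8% of all anchors (11.9% higher and 12.9% lower), with a median of 0.16 against 0.01. The risen ones were Tdgf1, Sox2, Myc, Lefty1, Klf4, Trim28, Tbx3, Esrrb and Fbxo15, and the fallen ones Nr5a2 and Lin28a. In D2 against B6, 4 rose and 2 fell (11.8% of anchors called), in D2 against D2-13B6 0 rose and 3 fell (5.73%), and in B6-13D2 against B6 0 were called (5.27%). For the interval effect, 0 rose and 1 fell (6.16%), and for the interaction 0 rose and 3 fell (4.83%). In D2-13B6 against B6-13D2, 9 rose and 2 fell (24.5%). DESeq2 called 6 higher and 0 lower for the background effect, and the 2 lower calls also disappeared with a scaling factor per chromosome. With single libraries left out, the counts for the background effect ran from 6 (without the first D2 library) to 9 higher, and from 0 to 2 lower, with 2 lower calls only without the second B6 or the first B6-13D2 library. In D2 against B6 they ran from 1 (without either D2 library) to 5 higher and from 0 (without either D2 or the first B6 library) to 2 lower. In D2 against D2-13B6 the lower calls ran from 0 (without the second D2-13B6 library) to 6 (without either B6 library).

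**Figure D5:**
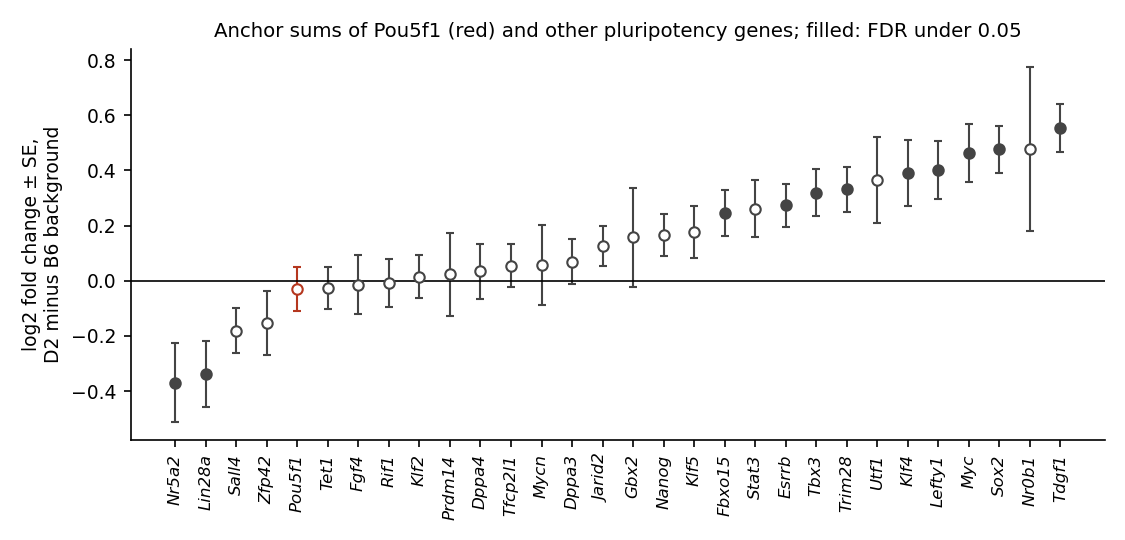
Background effect (D2 minus B6 genome, log2 fold change with SE) of the anchor sums of Pou5f1 and 29 other pluripotency genes, in ascending order. Filled points have an FDR under 0.05. Pou5f1 lies at -0.03 and is not called, Nr5a2 is lowest at -0.37 and Sox2 is at 0.48.

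Sox2, the partner of Oct4 on DNA, had 162 and 159 CPM of anchor sums in B6 and 191 and 214 in B6-13D2, against 239 and 223 in D2 and 256 and 292 in D2-13B6. Every D2-background library was higher, and the background effect was 0.48 (SE 0.08, FDR 4.23e-06). Nanog was not called for the background effect, at 0.16 (SE 0.08, FDR 0.106), with 499 and 420 CPM in B6, 468 and 488 in D2, 478 and 495 in B6-13D2, and 547 and 633 in D2-13B6. It was called in D2-13B6 against B6-13D2 (0.28, SE 0.10, FDR 0.0428) and not in D2 against B6 (0.05, SE 0.11, FDR 0.828). Fgf4 and Utf1, both direct targets of Oct4 with Sox2, gave -0.01 (SE 0.11, FDR 0.946) and 0.37 (SE 0.15, FDR 0.0734). Nr5a2, a nuclear receptor that acts on the Pou5f1 promoter, was lower with the D2 genome, at 33.9 and 30.4 CPM in D2 and 27.9 and 31.1 in D2-13B6, against 34.9 and 36.6 in B6 and 45.3 and 43.9 in B6-13D2 (-0.37, SE 0.14, FDR 0.0472). Its D2-13B6 against B6-13D2 was called (-0.59, SE 0.18, FDR 0.011), whereas D2 against B6 was not (-0.15, SE 0.22, FDR 0.749).

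The level of Pou5f1 over the 8 libraries was most like that of 5 anchors elsewhere, chosen by Pearson's r of log2 CPM among 9639 anchors with a protein-coding start off chromosomes 11 and 17. They hold Ctsa, Neurl2, Spata25 and Zswim1 (r = 0.989), Pcbp1 (0.984), Cox6a1, Gatc and Triap1 (0.982), Nodal (0.974), and Sema4b (0.972). The median r was 0.0122, and 264 anchors exceeded 0.8. These values rest on 8 points that share their line and depth, and they describe likeness of level only.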

How the data were processed

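The deposited counts are whole read pairs per loop, and, in 1 file per library, per pair of 5-kb bins, not normalized. Per the submitters' processing notes, BWA 0.7.18, SAMtools 1.19.2, edgeR 3.34.1 and the mm10 build were used, without stated roles. The loop caller is not given in the sources used here. Genes came from GENCODE release M21 on GRCm38.

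Library totals were 737955 to 1425304 counts. Read pairs carry no molecular identifiers. Replicates differed by more than sampling noise (chi-square over degrees of freedom 1.05 to 1.20 over loops with at least 10 counts), so none were merged. Deviations of same-numbered replicates correlated at -0.0443 to 0.00669 over 6 pairs of lines, so numbers were not treated as pairs.

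Loops, anchor sums, bin sums and bin pairs were each tested genome-wide with edgeR 4.0.16 (R 4.3.3): quasi-likelihood test, TMM factors, 1 mean per line, Benjamini-Hochberg adjustment, FDR 0.05. Filters were 5 counts (loops, bin pairs) or 10 counts (anchors, bins) in at least 2 libraries. An SE is the fold change over the root of its F statistic. The bin-pair test, the sums without the upstream bin and the contrast of the congenic lines were added after seeing the data. Alternatives were DESeq2 1.42.0, other scalings and filters, and single libraries left out. A line left with 1 library has no spread of its own, so calls gained or lost there rest on the spread of the other lines. On simulated counts with D2 against B6 changed, 2-fold changes were recovered in 53% of anchors, 40% of bins, 35% of loops and 18% of bin pairs, and 4-fold ones in 92%, 93%, 91% and 78%. Changes were placed only in features above a minimum mean count, at a fixed spread. Of the tested Pou5f1 loops, only contacts inside the anchor and the loops to the anchors of Psors1c2 and Sfta2 reached that mean. Most tested bin pairs of the anchor did not, so recovery was not measured for the sparser loops and pairs.

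Named loops were contacts inside the anchor, the 10 with the highest mean CPM, those called and the longest one tested. Of the pluripotency list, 1 gene is not reported here. Likeness was ranked over anchors off chromosomes 11 and 17. The members and lists were chosen with earlier results of these data known.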

Additional observations from a re-analysis of the deposited data

Results flagged for a closer look

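At 4 features of the Pou5f1 locus, the interaction term of edgeR was called. It compares the difference by interval allele between the D2 and the B6 background. The same term is the parental lines minus the congenic lines, which also differed in library total, so interval and depth cannot be told apart in it. For the anchor sum the interaction was -0.59 on the log2 scale, with D2 below D2-13B6 by -0.40 and B6-13D2 against B6 at 0.19, not called. For contacts inside the anchor it was -0.82. For the bins at 35495001 to 35500000 and 35500001 to 35505000, which are neighbours in the same anchor and share counts with it, it was -0.71 and -0.74. Each of these calls was lost in some alternatives: with single libraries left out, 0 to 4 bins of the anchor were called, and none under library totals alone. Among all tested anchors 4.83% were called for the interaction, and among bins 3.79%.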

How the results depend on the processing

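The background effect at the upstream bin was called in every setting run for bins (RLE factors, library totals alone, replicate block and each library left out), from -1.02 to -0.85 without single libraries. D2-13B6 against B6-13D2 was called in the same settings, from -0.96 to -0.62. B6-13D2 against B6 at this bin ran from -0.0241, without the second B6-13D2 library, to 0.33.

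For the anchor sum, D2 against D2-13B6 was no longer called under library totals alone (-0.25), a scaling factor per chromosome (-0.31), the trend on abundance removed (-0.12) and contacts inside anchors left out (-0.21). The interaction became -0.33, -0.11 and -0.30 under library totals, trend removal and contacts inside anchors left out. B6-13D2 against B6 became -0.00424 with the trend removed. The background effect became 0.0568 with contacts inside anchors left out and 0.14 without the upstream bin, and D2 against B6 0.0395 without that bin. With single libraries left out, D2 against B6 ran from -0.31 to 0.0816, B6-13D2 against B6 from 0.0173 to 0.41 (called without the first B6 library, FDR 0.0477), D2 against D2-13B6 from -0.43 to -0.38, the interval effect from -0.19 to 0.00578 (the latter without the first B6 library), the background effect from -0.12 to 0.0758 and the interaction from -0.80 to -0.41. The causes were not tested.

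The replicate block left every anchor call in place (D2 against D2-13B6 -0.40, interaction -0.59) and called 1 rather than 2 bins for the interaction. It changed no other call at the locus, and 1 rather than 2 pluripotency anchors were called lower for the background effect. Removing the trend left 0 loops called in D2 against D2-13B6 and in the interaction, and library totals alone 0 bins in both. With single libraries left out, called loops ran from 0 to 1 in D2 against D2-13B6, the background effect and the interaction, and called bins from 0 to 1 in B6-13D2 against B6 and the interval effect, 0 to 2 in D2 against D2-13B6, 1 to 2 in the background effect and 0 to 4 in the interaction.

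Background effects near 0 changed sign without single libraries for the loops to the anchors starting at 35530001 (-0.0322 to 0.16), 35585001 (-0.24 to 0.0548), 35855001 (-0.0563 to 0.20), 36945001 (-0.0568 to 0.31), 35905001 (-0.38 to 0.41) and 35695001 (-0.28 to 0.0766). Contacts inside the anchor gave a background effect of 0.0895 without the upstream bin. The interval difference in the share over 100 kb ran from -0.96 to 2.58 percentage points, and that in the upstream share from -0.11 to 2.64. Depth limits single loops, since 47 of 74 partners never exceeded 4 counts in a library.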
